A study of Mus musculus with 18 samples.

Results

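Prostates of 30-week-old mice with and without Elac2 were compared by RNA-Seq, with 3 libraries of each genotype. These are 6 of the 18 samples of the series, and 14729 of the 55469 listed genes had a mean normalised count of at least 10 over the 6 libraries and were compared. The KO mice are labelled ELAC2-/- and carry an Elac2 gene whose exon 8 is removed by a Cre recombinase under the Pb (probasin) promoter, which acts in prostate epithelium, so stroma, vessels, nerves and blood cells of the same lobes keep the gene. The WT mice are labelled ELAC2+/+. All are males of the strain the labels give as C56NL/6N, matched for age and litter, on normal chow and without the TRAMP transgene. Their ventral and lateral prostate lobes were used, dissected free of seminal vesicle, bladder, urethra and fat. The columns of the deposited table are called 1AF to 6AF and name no genotype. 1AF, 2AF and 3AF were taken as WT because they also stand in the table of the other mutant line at that age, and 4AF, 5AF and 6AF as KO. The question was which genes differed in all 3 KO libraries, and which differed in 4AF and 6AF and not in 5AF.

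ELAC2 is the RNase Z that cuts the 3′ trailer from precursor transfer RNAs, in the nucleus and in mitochondria, where most messenger RNAs are released by the removal of the transfer RNAs between them. The prostate lobes around this enzyme are a secretory epithelium: luminal cells make and fold large amounts of secreted protein in the endoplasmic reticulum (ER) with the help of chaperones and disulfide isomerases. The seminal vesicles next to the lobes make a different set of abundant secreted proteins, the seminal vesicle secretory proteins. MHC class II molecules show peptides to helper T cells. Macrophages, dendritic cells and B cells carry them, and epithelia can make them as well.

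Elac2 (ENSMUSG00000020549.14) itself had normalised counts of 149.6, 153 and 194 in the WT libraries and 98.4, 151 and 122 in 4AF, 5AF and 6AF. 4AF and 6AF lay below every WT library and 5AF lay inside the WT range, and the difference of −0.43 ± 0.20 (log2, KO minus WT, ± SE) had an adjusted p of 0.478 with limma. At 10 weeks, in other mice, all 3 KO libraries lay below the WT libraries, with 119, 111 and 116 against 124, 142 and 166. These are counts over the whole gene. Transcript ENSMUST00000071891.11 has 25 exons, and the 59 coding bases of exon 8 leave 2 bases over after whole codons. A transcript without exon 8 loses its reading frame, and any such transcript that remains is still counted. How much of it remains was not tested. The gene count therefore neither shows nor disproves the deletion in any library. The deleted exon, at chr11:64985563-64985621 on the + strand of GRCm38, is shown here in capitals because it is the stretch that the KO allele lacks after Cre has acted.
Elac2 exon 8: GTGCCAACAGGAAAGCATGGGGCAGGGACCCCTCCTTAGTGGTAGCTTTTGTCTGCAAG

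Several features of the libraries bear on every comparison. They held 7734190 to 11225281 reads, with a median of 8519204. The 11 seminal vesicle genes took 8.53% of the reads of 4AF (95% Wilson interval 8.52 to 8.55) and 6.33% of 6AF (6.31 to 6.34), but 0.000143% of 5AF and 0.000435 to 0.000854% of the WT libraries. These intervals cover counting error only. The 31 prostate luminal genes took 13.9 to 15.3% in WT, 7.71% in 4AF, 14.6% in 5AF and 8.9% in 6AF. Tgm4, a transglutaminase of prostatic fluid chosen after its values were seen, had counts of 41.8, 59220 and 40230 in WT and 24520, 33 and 19830 in KO, so 1AF and 5AF lay apart from the other libraries of their groups. In bulk tissue, fewer cells of a type and less RNA per cell cannot be told apart.

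Of these libraries, 3AF and 6AF lay between the others of their group. In the 64 genes at least 4-fold apart between 1AF and 2AF, with a count of at least 200 in one of them, 3AF lay between both in 60, at a median position of 32.3% of the way from 2AF to 1AF (quartiles 28.7 to 36.9%). In the 210 such genes of 4AF and 5AF, 6AF lay between in 205, at 75.9% of the way from 5AF to 4AF (quartiles 70 to 80.5%). At 10 weeks the library most often in between, 11AF in 278 of 304 genes, had quartiles of 17 to 72.6%. The labels state no pooling, and whether 3AF and 6AF share material with the other libraries was not tested. The tests treat all 6 as separate mice, and their p-values measure the spread between these libraries. Counts for 1AF and 2AF against 4AF and 5AF alone, a choice made after the values were seen, stand beside the main ones.

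**Figure D1:**
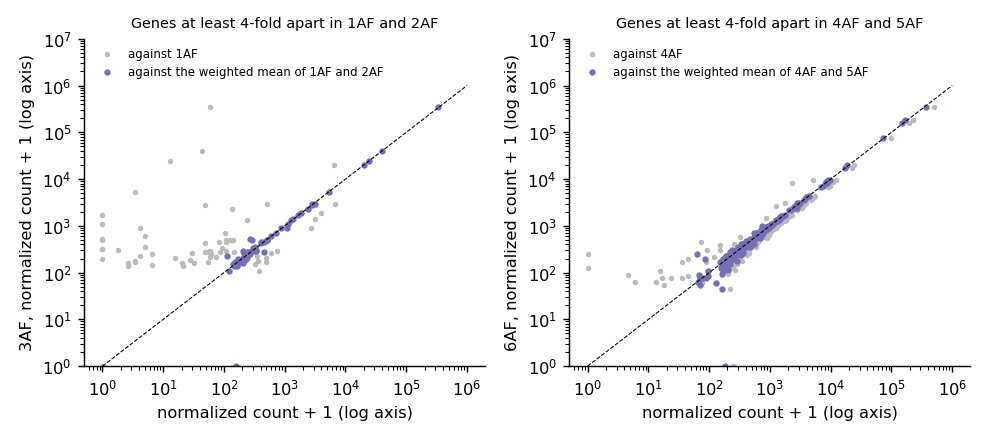
Each point is a gene at least 4-fold apart between 1AF and 2AF (left) or between 4AF and 5AF (right), with the normalised count + 1 of 3AF or 6AF on the y axis (log scale). Grey points have the count of 1AF or 4AF on the x axis (log scale), and purple points the mean of the pair weighted 32.3 to 67.7 (1AF to 2AF) or 75.9 to 24.1 (4AF to 5AF). The purple points lie close to the dashed line of equal counts over the whole range. The weights are the median positions of 3AF and 6AF in these same genes, so this closeness is in part set by that choice.

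No gene passed an adjusted p of 0.05 with limma (0% of 14729 genes, smallest adjusted p 0.165), while 819 genes lay higher and 797 lower in KO at an unadjusted p under 0.05 (5.56% and 5.41%). When each library was scaled to the same total without the seminal vesicle genes, 73.9% of the genes at an unadjusted p under 0.05 lay higher, against 50.7% as deposited. edgeR's quasi-likelihood test on the recovered reads called 0 genes, with 1752 at an unadjusted p under 0.05. DESeq2 on the same reads called 285 genes, 195 higher (1.32%) and 90 lower (0.611%). Of the 285, 218 had all 3 KO libraries beyond WT and 96 were absent in 5AF, by the definitions given below, which can both hold for a gene. Without 5AF, limma called 936 genes, 593 higher (4.03%) and 343 lower (2.33%), and of the 936, 385 had all 3 KO libraries beyond WT and 301 were absent in 5AF. Without 1AF it called 2, both lower. With 1AF and 2AF against 4AF and 5AF alone it called 0, with 297 at an unadjusted p under 0.05.

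Without a test, the genes fell into groups by the position of their libraries on the log2(normalised count + 1) scale. In 1167 genes (7.92%) all 3 KO libraries lay above all 3 WT libraries, and in 1238 (8.41%) below. With 1AF and 2AF against 4AF and 5AF alone the counts were 2073 and 2189, with both KO libraries above or below both WT libraries. The gap between the nearest KO and WT library reached 1 log2 unit in 25 genes above and 5 below. In 733 of the 1167 genes and 769 of the 1238, the difference of 5AF from the WT mean was between 0.5 and 2 times that of 4AF and 6AF, a range chosen after the values were seen. It was smaller in 356 and 394 genes and larger in 78 and 75.

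A second group had 4AF and 6AF at least 1 log2 unit beyond every WT library and 5AF within 0.5 units of the WT range. It held 367 genes above WT (2.49%) and 21 below (0.143%). In 231 of the 367, 5AF lay within 0.5 units of the WT mean, in 81 further below it and in 55 further above it. The same rule found 12 genes above and 4 below with 4AF as the library without the difference (0.0815% and 0.0272%), and 2 above and 4 below for 6AF (0.0136% and 0.0272%). Next to the threshold, Prom1 lay just inside and Zdhhc23 just outside, with the nearer of 4AF and 6AF 1.01 and 0.99 log2 units from the nearest WT library. The reverse pattern, a difference in 5AF alone, was seen in 45 genes above WT and 68 below (0.306% and 0.462%). It was seen in 4AF alone in 68 and 107 genes (0.462% and 0.726%) and in 6AF alone in 21 and 33 (0.143% and 0.224%).

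**Figure D2:**
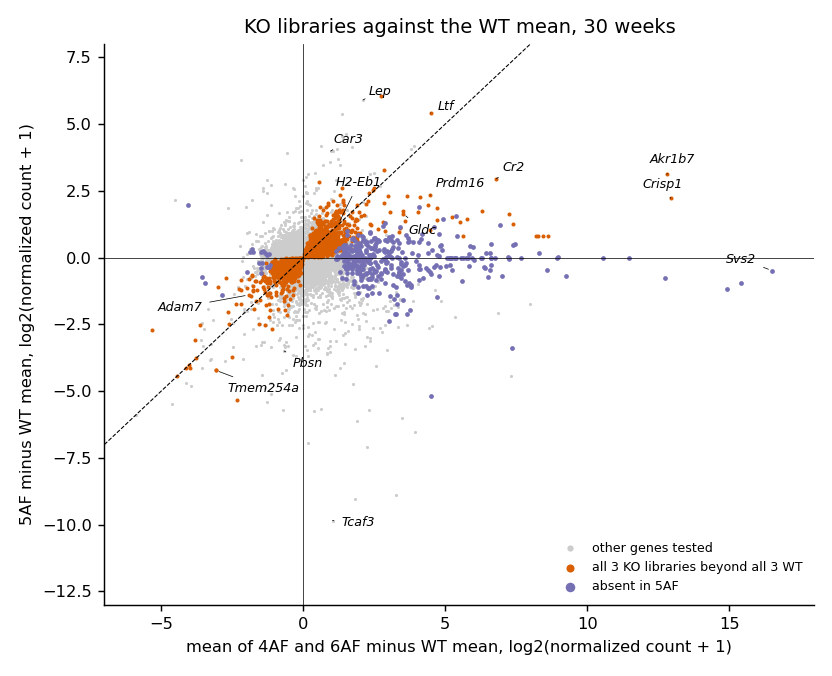
Each point is 1 of 14729 genes. The x axis is the mean of 4AF and 6AF minus the WT mean and the y axis is 5AF minus the WT mean, both in log2(normalised count + 1), and the dashed line marks equal differences. Genes with all 3 KO libraries beyond all WT libraries (orange) lie along the line or are flatter than it, and genes absent in 5AF (purple) lie in most cases near y = 0 and to the right, with 81 of the 367 higher ones more than 0.5 units below it.

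Among the lists, MHC class II presentation had the highest share of members above WT in all 3 KO libraries. Of the 12 genes in the MHC class II list, 8 were tested and 6 of these lay above WT in all 3 KO libraries, against a background of 7.92% of genes, with a median log2 difference over the list of 0.78 beside −0.01 for all genes tested. The medians were 0.63 in 4AF, 1.02 in 5AF and 0.75 in 6AF. With the other scalings 5 or 6 genes lay above WT, beside 1066 to 1772 of all 14729 genes. H2-Eb1, a beta chain of the class II dimer, had counts of 154, 160.1 and 129 in WT and 353, 354 and 344 in KO, with a difference of 1.25 ± 0.12 (adjusted p = 0.165 with limma, 1.3e-09 with DESeq2). H2-Aa, an alpha chain, had 268, 224 and 246 in WT and 469.8, 466 and 487 in KO (0.95 ± 0.11). Cd74, the invariant chain that escorts the dimer, had 458, 362 and 389 in WT and 704, 742 and 661 in KO (0.81 ± 0.12). In all of them the 3 KO libraries lay close together and apart from WT. H2-Ab1 (log2 0.72), the protease Ctss that trims the invariant chain (0.75) and Ciita, the master regulator of class II transcription (1.08), also lay above WT in every KO library. Ciita came close to overlap, with 14.5, 21.9 and 36.6 in WT and 36.9, 57.3 and 55.8 in KO. H2-DMa, which loads peptides, did not separate (54.7, 41.5 and 53.5 in WT and 32, 74.9 and 44.2 in KO).

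Stretches of the promoters of H2-Eb1 and H2-Aa, the class II genes with the smallest p, are shown from RefSeq (GRCm38.p6) because the data place both genes higher in every KO library. Capitals mark CCAAT or its reverse ATTGG, the core of the Y box through which class II genes are known to be controlled. In the 250 bases before the start, the letters CCAAT on either strand stood in 4 of the 5 tested class II genes with a promoter entry and in 40.2% of the 10506 tested genes with one.
H2-Eb1 (chr17:34305781-34305863, + strand): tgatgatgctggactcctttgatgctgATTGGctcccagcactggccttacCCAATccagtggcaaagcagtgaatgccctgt
H2-Aa (chr17:34287840-34287898, - strand): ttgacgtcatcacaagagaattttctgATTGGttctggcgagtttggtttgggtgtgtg

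In the MHC class I list 7 of 20 genes lay above WT in all 3 KO libraries and 1 below, beside 7.92% and 8.41% of all genes, and the list's medians were −0.02 in 4AF, 0.35 in 5AF and 0.20 in 6AF. Nlrc5, the regulator of class I transcription, had 27.3, 56.5 and 44.5 in WT and 200.5, 122 and 143 in KO (1.86 ± 0.31, adjusted p = 0.254 with limma). The non-classical class I genes H2-Q6 (1.29), H2-Q7 (1.01) and H2-Q4 (0.73) and the peptide transporter Tap1 (0.56) also separated. H2-Q genes are near-identical copies of each other, so their counts are uncertain. B2m, the light chain shared by class I molecules, followed the other pattern, with 4274, 6262 and 5590 in WT and 13520, 3445 and 10620 in KO, high in 4AF and 6AF and below WT in 5AF.

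The interferon list was mixed. Of 49 genes 9 lay above WT in all 3 KO libraries and 5 below, beside 7.92% and 8.41% of all genes, with a median of 0.18. Scaled to the same total 12 lay above and 4 below, beside 1251 and 831 of 14729 genes. With the seminal vesicle genes left out of the total these were 13 and 3, beside 1772 and 644. After quantile normalisation they were 7 and 5, beside 1066 and 1266. Parp14, an interferon-induced gene, had 369, 343 and 344 in WT and 474, 460.4 and 465 in KO (0.41 ± 0.09), and Ifi27 (0.40) lay higher too. Stat2 (−0.47) and Isg20 (−0.59) lay lower in all 3 KO libraries.

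Some genes of macrophages and dendritic cells lay higher as well. Of 25 tested, 8 lay above WT in all 3 KO libraries and 0 below, beside 7.92% and 8.41% of all genes, with medians of 0.16 in 4AF, 0.78 in 5AF and 0.54 in 6AF. Mpeg1, a pore-forming protein of macrophages, had 157, 189 and 170.3 in WT and 245, 290.0 and 250.1 in KO. Ccr2, the receptor that draws monocytes into tissue, had 28.1, 38 and 36.6 in WT and 68.9, 78.6 and 57 in KO. The summed share of the list overlapped, at 0.0212 to 0.0254% of counts in WT and 0.0238 to 0.0443% in KO, highest in 5AF. The defining markers Adgre1, Csf1r and C1qa overlapped between the groups (C1qa 149.6, 126 and 122 in WT, 141, 241 and 176 in KO). C1qb and C1qc of the same list lay above WT in all 3 KO libraries. C1qb had 108, 99.1 and 106 in WT and 117, 209 and 165 in KO. C1qc came close to overlap, with 80.4, 100 and 104.9 in WT and 105.8, 205 and 130 in KO. The T cell markers Cd3d, Cd3e and Cd3g and the B cell markers Ms4a1 and Cd79a were all under the count minimum, and the list of T and NK cells held 0.0019 to 0.00207% of counts in WT and 0.00236 to 0.00324% in KO. The part of such cells in the class II values was not tested. In the complement list 4 of 18 genes lay above WT in all 3 KO libraries and 0 below, read against the same shares of all genes. When scaled to the same total 2 of 18 lay above, beside 1251 of all 14729 genes.

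**Figure D3:**
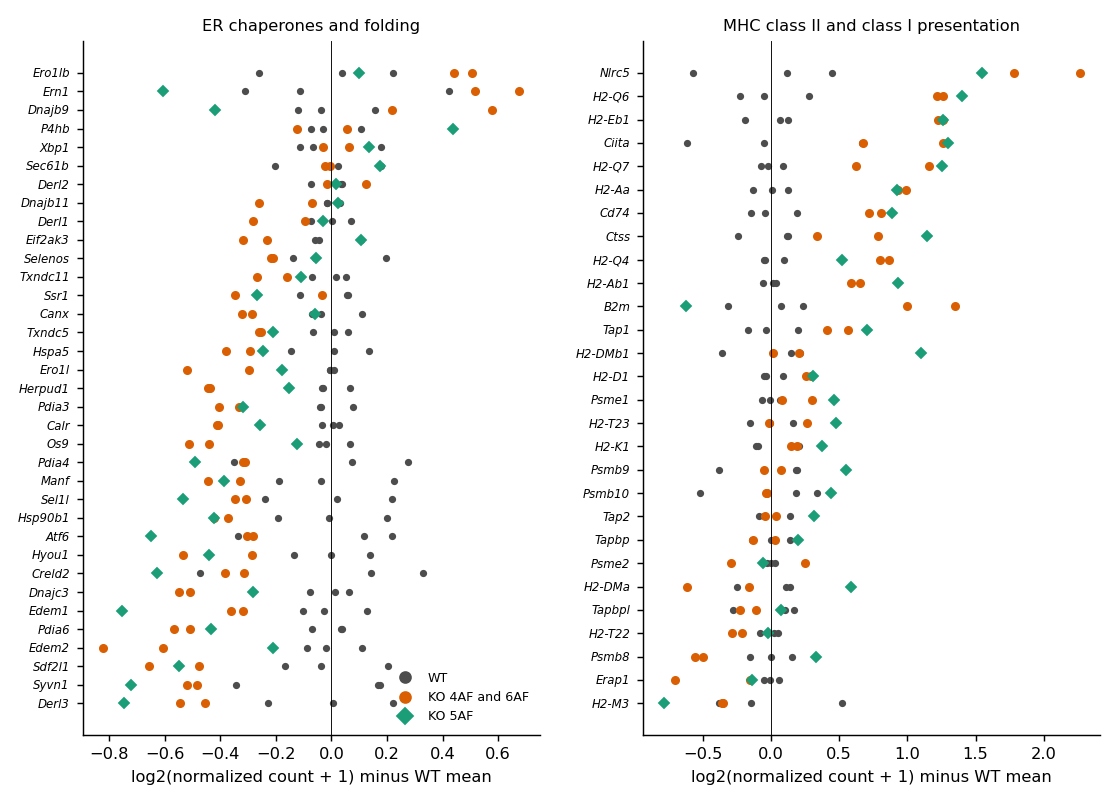
Each row is a gene and each point a library, as log2(normalised count + 1) minus the WT mean, for the 35 ER genes (left) and the tested MHC class II and class I genes (right). Most ER genes have all KO points to the left of the WT points, and H2-Eb1, H2-Aa, Cd74, H2-Ab1, Nlrc5, H2-Q6 and H2-Q7 have them to the right.

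Several genes outside these lists lay above WT in all 3 KO libraries, with a wide gap in some and a narrow one in others, such as Hes1 (0.35 log2 units). Ptpru, a receptor-type tyrosine phosphatase, had 15.3, 16.1 and 32.7 in WT and 109.5, 113 and 101 in KO (2.37 ± 0.31, adjusted p = 0.19 with limma, 5.7e-07 with DESeq2). Itgb6, an epithelial integrin subunit that activates TGF-beta, had 41, 36.9 and 39.6 in WT and 118, 85.2 and 109 in KO (1.38 ± 0.19). Krt4, a keratin of stratified and luminal progenitor epithelium, had 66.7, 39.2 and 49.5 in WT and 113, 261 and 141 in KO (1.65 ± 0.34), highest in 5AF. In Ptpru and Itgb6 the gap between the nearest KO and WT library, 1.60 and 1.04 log2 units, was wider than the spread within either group. In Krt4 the gap, 0.75 log2 units, was narrower than the spread within KO. Hes1, a Notch target, had 189, 124 and 144 in WT and 246, 242 and 259 in KO (0.73 ± 0.17). Ltf, the secreted iron-binding protein lactoferrin, had 0, 26.5 and 1.98 in WT and 92.2, 184 and 101 in KO, and the spread within WT was wide. Met, the receptor of hepatocyte growth factor, had 83.6, 207 and 181 in WT and 566, 261 and 352 in KO (1.34).

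For the genes of the study's text, Hif3a, a hypoxia-inducible factor subunit, had 17.7, 29.9 and 22.8 in WT and 57.8, 75.6 and 44.2 in KO (1.30 ± 0.30, adjusted p = 0.378 with limma). Bcl2, which blocks apoptosis, had 177, 164 and 154 in WT and 358, 195 and 323 in KO (0.78 ± 0.23), all above WT but with 5AF close to it. Trp63, a transcription factor of basal cells, had 109, 112 and 104 in WT and 268, 104 and 213 in KO, so 5AF lay at the WT level. Tst, the mitochondrial thiosulfate sulfurtransferase, had 267, 682 and 579 in WT and 303, 259 and 302 in KO, and 1AF lay with the KO libraries. None of the 4 passed limma's threshold, which no gene passed. With DESeq2 the adjusted p was 0.0501 for Hif3a, 0.083 for Bcl2, 0.279 for Trp63 and 0.253 for Tst.

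Several abundant genes of the secretory epithelium lay lower in all 3 KO libraries. Defb50, a beta-defensin, had 12880, 13320 and 12590 in WT and 7544, 7807 and 7583 in KO, a difference of −0.76 ± 0.10 (adjusted p = 0.19 with limma, 1.2e-13 with DESeq2). Ncoa4, which delivers ferritin for breakdown, had 5811, 6207 and 6626 in WT and 3590, 3552 and 3363 in KO (−0.83 ± 0.10, adjusted p = 0.165, limma). Msmb, the secreted beta-microseminoprotein, had 7146, 8104 and 7673 in WT and 4638, 3038 and 4270 in KO (−0.96 ± 0.17). In these genes the KO libraries did not overlap with WT and 5AF lay with 4AF and 6AF. Mme, the cell-surface peptidase neprilysin, had 13970, 13000 and 12420 in WT and 5001, 7827 and 5667 in KO (−1.11 ± 0.18), with 5AF nearest to WT. Mlph, a linker of secretory granules to myosin, had 3172, 2941 and 3113 in WT and 1358, 1847 and 1578 in KO (−0.96 ± 0.13). The luminal list as a whole was mixed, with 5 of 31 genes lower and 3 higher in all 3 KO libraries, beside 8.41% and 7.92% of all genes. Without 5AF these were 14 and 6, beside 3189 lower and 3167 higher of all 14729 genes.

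Adam7, a membrane protein best known from the epididymis, had the largest gap among lower genes with a mean count of at least 50 other than Tmem254a, with 745, 519.5 and 579 in WT and 177, 229.8 and 144 in KO (−1.75 ± 0.21, adjusted p = 0.165 with limma, 1.3e-09 with DESeq2). The other genes of the 29 in the epididymis and vas deferens list that reached the count minimum were Adam28, Crisp1, Lcn2 and Akr1b7, and the list as a whole took 0.00823 to 0.00944% of counts in WT, 0.22% in 4AF, 0.00518% in 5AF and 0.172% in 6AF. Aak1, a kinase of clathrin-mediated uptake, had 2244, 2097 and 2015 in WT and 1159, 1266 and 1224 in KO (−0.80 ± 0.09). Syt7, a calcium sensor of vesicle fusion, had 550.0, 1146 and 821 in WT and 309.9, 325 and 314 in KO (−1.34 ± 0.25). Bahcc1 (−1.09 ± 0.13) and Mcrip1 (−0.99 ± 0.16) also lay lower in every KO library. Tmem254a had 143, 77.2 and 132 in WT and 25.8, 5.14 and 5.82 in KO, but it has near-identical copies, so its counts are uncertain.

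**Figure D4:**
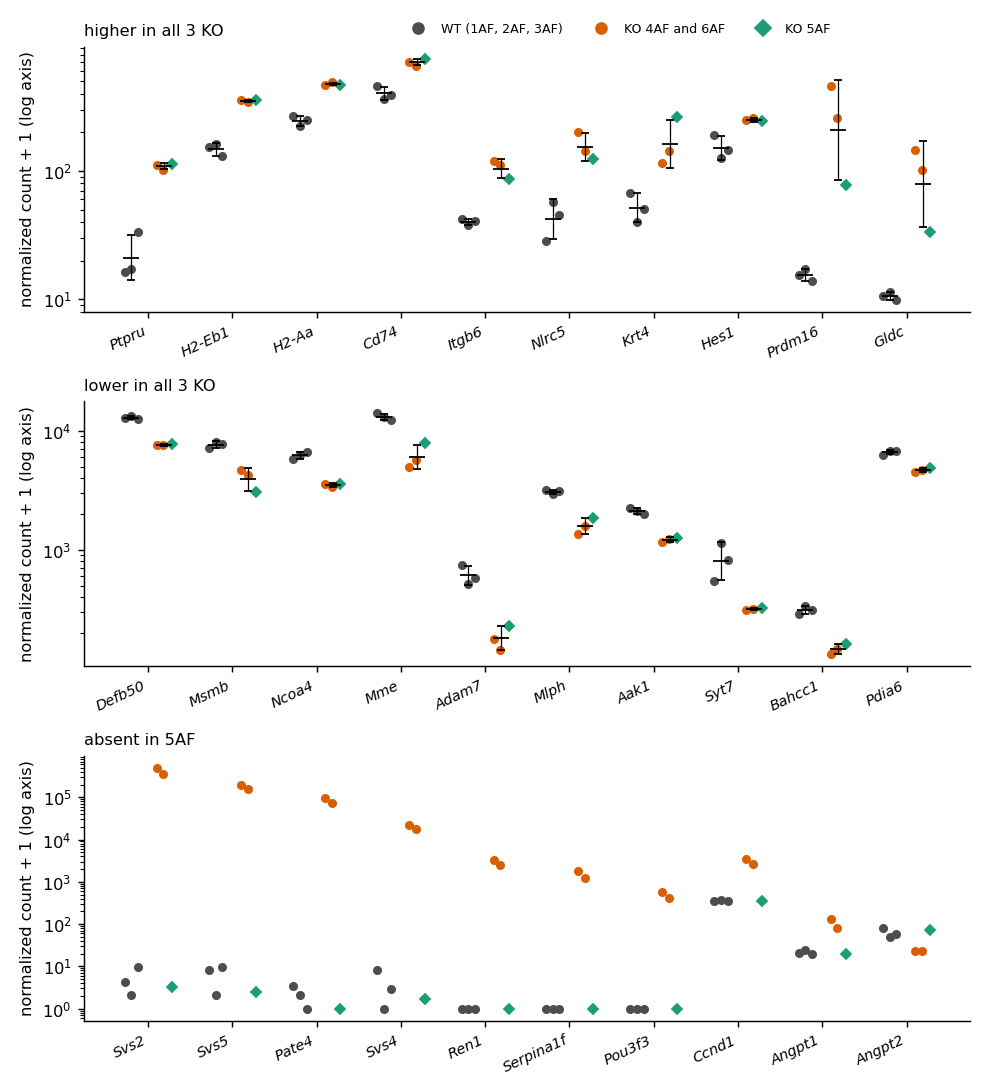
Normalised count + 1 of each library on a log axis for genes higher in all 3 KO libraries, lower in all 3, and absent in 5AF. In the upper panels the dash and bars give the mean ± SD of the log2 values of the 3 libraries, and 5AF (diamond) lies with 4AF and 6AF. In the lower panel no mean is drawn, and 5AF lies with the WT libraries, for example for Svs2 and Ccnd1.

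Among the lists, that of ER chaperones and folding enzymes had the highest share of members below WT in all 3 KO libraries. Of its 35 genes 19 lay below WT in all 3 KO libraries and 0 above, against a background of 8.41% lower, and 14 of the 19 had a like difference in 5AF. The median was −0.34, beside −0.01 for all genes tested, with −0.31 in 4AF, −0.26 in 5AF and −0.32 in 6AF. The summed share of the list was 1.06 to 1.12% of counts in WT, 0.825% in 4AF, 1.04% in 5AF and 0.848% in 6AF, so 5AF lay next to WT. P4hb, the member with the highest count, overlapped, with 11370, 10040 and 10350 in WT and 9700, 14300 and 10990 in KO, highest in 5AF. With the other scalings 16 to 19 of the 35 lay below WT, beside 644 to 1266 of all 14729 genes, and the median ran from −0.35 to −0.23. With 1AF and 2AF against 4AF and 5AF alone 20 of the 35 lay below, beside 2189. DESeq2 called 5 of the 35, all lower, beside 0.611% of all genes called lower and 1.32% called higher. Pdia6, a disulfide isomerase, had 6316, 6801 and 6783 in WT and 4477, 4909 and 4661 in KO (−0.50 ± 0.10, adjusted p = 0.307 with limma, 0.000299 with DESeq2). Hspa5, the chaperone BiP that also holds the stress sensors of the ER inactive, had 8706, 10570 and 9682 in WT and 7403, 8117 and 7849 in KO (−0.31 ± 0.12). Calr, the chaperone of glycoproteins calreticulin, had 9262, 9663 and 9514 in WT and 7147, 7939 and 7131 in KO (−0.36 ± 0.10). In each of them the lowest WT library lay above the highest KO library.

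Hsp90b1 (−0.41), Hyou1 (−0.42), Sdf2l1 (−0.56), Dnajc3 (−0.45) and Pdia3 (−0.35), all chaperones, co-chaperones or isomerases, lay below WT in all 3 KO libraries too, as did Derl3 (−0.58), which takes misfolded proteins out of the ER. The sensors themselves did not separate in one direction. Ern1, the sensor IRE1, had 992, 1648 and 1137 in WT and 1964, 807 and 1760 in KO, higher in 4AF and 6AF and lower in 5AF. Eif2ak3, the sensor PERK, had 701, 626 and 632 in WT and 555, 702 and 522 in KO. Xbp1, the factor that IRE1 activates by splicing, had 1639, 1340 and 1384 in WT and 1419, 1591 and 1512 in KO. Of 24 tested genes of the integrated stress response, which PERK feeds into, 1 lay above WT in all 3 KO libraries, Ddit3 (0.51), and 1 below, Pycr1 (−0.44), beside 7.92% and 8.41% of all genes. Without 5AF 13 lay above and 3 below, beside 3167 and 3189 of all 14729 genes, and the median was 0.41 against 0.16 with it.

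The ER stress response element, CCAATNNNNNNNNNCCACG, is the promoter sequence through which the unfolded protein response is known to act on ER chaperone genes. In the 250 bases before the start, on either strand, it stood in 9 of the 29 ER genes with a RefSeq promoter, 7 of the 16 that lay below WT in all 3 KO libraries and 2 of the other 13, while 0.152% of all tested genes with a promoter held it. The element contains CCAAT, which stood in 75.9% of the 29. The 9 genes are Calr, Derl3, Dnajc3, Hsp90b1, Hspa5, Pdia6 and Syvn1, and, among those that overlapped with WT, Canx and Creld2. For the genes described first, the element is shown in capitals, in Calr in reverse. A match of letters is not evidence of binding.
Pdia6 (chr12:17266471-17266529, + strand): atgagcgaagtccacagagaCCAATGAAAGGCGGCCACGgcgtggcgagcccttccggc
Hspa5 (chr2:34772005-34772063, + strand): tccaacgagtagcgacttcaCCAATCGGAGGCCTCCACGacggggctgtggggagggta
Calr (chr8:84847055-84847113, - strand): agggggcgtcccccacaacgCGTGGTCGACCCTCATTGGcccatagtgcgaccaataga

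The metabolic lists are read against 8.41% of all genes lower and 7.92% higher in all 3 KO libraries. Counts scaled to the same total are read against 831 lower and 1251 higher of all 14729 genes under that scaling. In the hypoxia and glycolysis list 6 of 24 genes lay below WT in all 3 KO libraries and 3 above, but 3 and 3 when scaled to the same total. The enzymes Ldha (1871, 1850 and 1780 in WT, 1261, 1549 and 1379 in KO) and Gapdh (2365, 2285 and 2485 in WT, 1759, 2029 and 1756 in KO) were among the lower ones, with 5AF nearest to WT in both. In the list of citrate, zinc and polyamine genes 5 of 21 lay lower and 2 higher. Srm (−0.49) and Sms (−0.39), which make spermidine and spermine, lay lower, and Sat1, which starts their breakdown, lay higher (546, 543 and 497 in WT, 668, 697 and 739.7 in KO). In the lipid and cholesterol list 6 of 31 lay lower and 0 higher, among them Mvk (−0.72), Dhcr7 (−0.73) and Sqle (−0.35) of the sterol pathway. With the seminal vesicle score as a covariate the medians of the polyamine and lipid lists were 0.03 and 0.00, against −0.20 and −0.26. Scaled to the same total, 3 of the 21 and 2 of the 31 genes lay lower, beside 831 of all 14729 genes. Without 5AF 12 and 18 did, beside 3189 of all 14729 genes. Among the genes against oxidative stress 4 of 25 lay lower and 2 higher, but 3 and 3 when scaled to the same total. Gpx3, the secreted glutathione peroxidase, had 3109, 2918 and 2921 in WT and 2193, 2005 and 1958 in KO (−0.54 ± 0.09, adjusted p = 0.000299 with DESeq2). Prdx6, a peroxiredoxin, had 8138, 12600 and 11440 in WT and 6280, 6398 and 6391 in KO (−0.73 ± 0.17).

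Lists close to the enzyme's own function are read against 7.92% of all genes above WT in all 3 KO libraries and 8.41% below. Of the 75 nuclear-encoded OXPHOS subunits 4 lay above WT in all 3 KO libraries and 2 below, with a median of 0.00. Without 5AF 5 lay above and 17 below, beside 3167 above and 3189 below of all 14729 genes. Of the 78 mitochondrial ribosomal proteins 7 lay above and 7 below. Of the 11 mitochondrial mRNA entries 1 lay above, mt-Nd3 of complex I, with 2690, 1903 and 1983 in WT and 3318, 3130 and 3347 in KO (0.59 ± 0.15, adjusted p = 0.386 with limma). The 2 mitochondrial rRNAs had a median of −0.27 and neither separated. The 12S rRNA mt-Rnr1 was spread in KO, with 56950, 58600 and 55890 in WT and 74780, 30690 and 43470 in KO. Of 32 genes of tRNA end processing and mitochondrial RNA maturation 1 lay above and 4 below, among them Trnt1, which adds the CCA end to the 3′ end that RNase Z makes (200.2, 248 and 194 in WT, 182, 176 and 171 in KO). The medians were 0.00 for the ribosomal proteins, −0.06 for the mRNAs and −0.01 for the tRNA list. The signs of these and of the OXPHOS median changed with the scaling, while that of the rRNAs did not. In the cell cycle list 6 of 29 genes lay above WT in all 3 KO libraries and 0 below, against the same shares. Scaled to the same total 9 lay above, and 9 with the seminal vesicle genes left out of the total, beside 1251 and 1772 of all 14729 genes. After quantile normalisation 6 did, beside 1066. Among the 6 were Mki67 (88.5, 157 and 160.4 in WT, 235, 172 and 212 in KO) and Pcna (138, 146 and 173 in WT, 203, 181 and 204 in KO), both markers of dividing cells. Their 5AF values lay close to the highest WT library. Of the 29 genes 23 lay higher in KO on average and 6 lower. Top2a of the same list overlapped, with 182.5, 184 and 133 in WT and 162, 237 and 159 in KO.

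**Figure D5:**
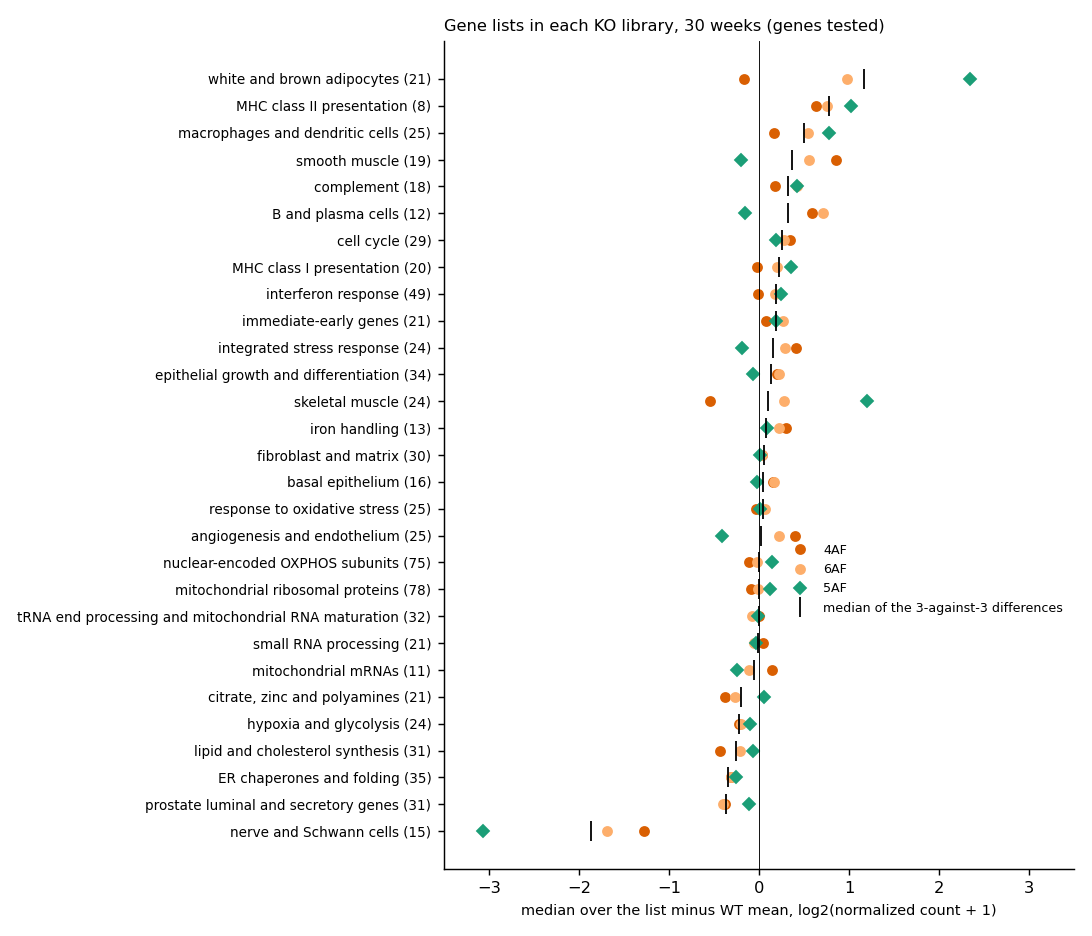
Median over each gene list of log2(normalised count + 1) minus the WT mean, in each KO library, with the number of genes tested in parentheses and the median of the differences between the groups as a bar. The 3 KO libraries lie together for the ER genes and the MHC class II genes, and 5AF lies apart for adipocytes, skeletal muscle, smooth muscle, nerve, and angiogenesis and endothelium.

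Another set of genes lay above WT in all 3 KO libraries but much less so in 5AF. Prdm16, a chromatin regulator, had 14.5, 16.1 and 12.9 in WT and 455, 77.1 and 256 in KO (3.76 ± 0.59, adjusted p = 0.238 with limma, 1.3e-09 with DESeq2). Gldc, the glycine decarboxylase of mitochondria, had 9.65, 10.4 and 8.91 in WT and 145, 32.3 and 100 in KO (2.89 ± 0.54, adjusted p = 0.3 with limma, 4.4e-05 with DESeq2). Gsdmc2, a gasdermin, had 6.43, 5.76 and 3.96 in WT and 120.5, 29.4 and 98.9 in KO (3.51 ± 0.56). In each of them 5AF lay above every WT library and below the other KO libraries. Akr1b7, an aldose reductase abundant in vas deferens, had 1.61, 0 and 0 in WT and 11100, 11 and 8742 in KO. Crisp1, a sperm-coating protein of the epididymis, had 0, 0 and 0 in WT and 9007, 3.67 and 6818 in KO. Both were close to WT in 5AF. Cr2, a complement receptor, had 0, 3.46 and 0 in WT and 187, 11.8 and 178 in KO. Samd9l, an interferon-induced gene that also met the rule for genes absent in 5AF, had 79.6, 140.5 and 127 in WT and 413, 188 and 344 in KO.

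The genes absent in 5AF included most of those of the seminal vesicle. Of the 11 seminal vesicle genes, 10 met the rule, which 2.49% of all genes met. This is a description, since these genes passed the count minimum through 4AF and 6AF and the list was trimmed after its values were seen. Svs2, the main protein of the copulatory plug, had 3.22, 1.15 and 8.91 in WT and 493700, 2.2 and 349500 in KO. Svs5 had 7.24, 1.15 and 8.91 in WT and 195400, 1.47 and 155400 in KO. Pate4, a small secreted protein, had 2.41, 1.15 and 0 in WT and 96660, 0 and 73730 in KO. In 5AF these genes were at or under the level of the WT libraries. The 367 higher genes took 10.2% of the counts of 4AF, 7.64% of 6AF, and 0.261 to 0.297% of 5AF and the WT libraries. Without the seminal vesicle list the other 357 genes took 1.63% and 1.31% in 4AF and 6AF. Of the 367, 310 were higher in 4AF than in 6AF, with a median difference of 0.32 log2 units (quartiles 0.12 to 0.45), and 23 were at 0 in every WT library.

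Many of the others are not seminal vesicle secretions by name. Ren1, which encodes renin, Serpina1f, a serpin, and Pou3f3, a transcription factor, were at 0 in all 3 WT libraries and in 5AF. Ren1 had 3232 in 4AF and 2517 in 6AF, Serpina1f 1770 and 1252, and Pou3f3 578 and 422. A count of 0 in a library allows up to 3 reads. Ccnd1, cyclin D1, which drives entry into the cell cycle, had 348, 373 and 352 in WT and 3435, 359 and 2696 in KO. 5AF lay inside the WT range. Further genes were chosen after their values were seen. Pfkfb3, which stimulates glycolysis, had 90.9, 154 and 158 in WT and 9789, 172 and 7196 in KO. Ptgs2, the inducible prostaglandin synthase, had 12.1, 8.06 and 17.8 in WT and 2291, 11.8 and 1745 in KO. Elf5, an epithelial transcription factor, had 14.5, 21.9 and 9.9 in WT and 1509, 11 and 1145 in KO. In all of them 4AF was highest, 6AF next and 5AF near the WT level. The fatty acid desaturase Fads2 (80.4, 123 and 107 in WT, 894, 106 and 757 in KO) and the growth factor receptor Fgfr2 (226, 291 and 205 in WT, 998, 173 and 808 in KO) showed the same order. Angpt1, a ligand that steadies vessels, had 20.1, 23 and 18.8 in WT and 132, 18.4 and 81.4 in KO, and its antagonist Angpt2 was one of the 21 lower genes, with 79.6, 49.5 and 58.4 in WT and 22.1, 73.4 and 22.1 in KO. All of these values move with the share of seminal vesicle reads in 4AF and 6AF, and the part of that tissue in them was not tested.

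Genes that stood out in 5AF alone were of several kinds. Pbsn, probasin, the gene whose promoter drives the Cre, had 6482, 26950 and 20340 in WT and 10540, 1351 and 8718 in KO, lowest in 5AF and next lowest in 1AF. Tcaf3 (12.1, 36670 and 24520 in WT, 5223, 1.47 and 4148 in KO) and Rnase1 (325, 1273 and 942 in WT, 506, 73.4 and 434 in KO) had the same order of libraries. Wfdc2, a secreted epithelial protein, had 61.1, 35.7 and 33.7 in WT and 43, 264 and 83.7 in KO. Of the 21 tested adipocyte genes 18 were highest in 5AF, and Prdm16, Elovl6 and Pnpla2 were not. The share of all tested genes that were highest in 5AF was not counted, so these 18 have no background. The brown fat genes Ucp1 and Cidea, under the count minimum, were at 0 in 5AF. Dgat2, which makes triglycerides, had 34.6, 47.2 and 60.4 in WT and 34.4, 249 and 75.6 in KO, and Adipoq, the fat-cell hormone adiponectin, had 0, 74.9 and 38.6 in WT and 14.8, 353 and 108 in KO. The adipocyte list took 0.165% of the counts of 5AF against 0.0484 to 0.0929% in the other 5 libraries. Nerve genes set apart the WT libraries instead. Prph, a neuronal filament, had 3.22, 165 and 113 in WT and 1.23, 1.47 and 2.33 in KO, and Th, an enzyme of noradrenaline synthesis, had 0.804, 39.2 and 33.7 in WT and 0, 0 and 0 in KO. Both were high in 2AF and 3AF and low in 1AF and in every KO library. All 15 tested genes of the nerve list lay lower in KO on average, 4 of them without overlap, beside 8.41% of all genes.

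In the KO mice of 10 weeks and their own WT mice, from a table normalised apart, no gene of 15089 passed limma's threshold (0%), and all 3 KO libraries lay above WT in 11.7% of genes and below in 14.3%. Of the 1139 genes higher in all 3 KO libraries at 30 weeks and tested at both ages, 223 were also higher in all 3 at 10 weeks (19.6% of them, and 13.1% of the 10-week genes, beside 11.9% of all genes tested at both ages). Of the 1201 lower genes, 185 were also lower (15.4%, and 9.65% of the 10-week genes, beside 13.4%). Of the 350 genes higher and absent in 5AF, 188 were higher in all 3 KO libraries at 10 weeks (53.7%). Of the 11 seminal vesicle genes 8 were higher in all 3. WT libraries of this age held such RNA too. Svs2 had 238900, 78490 and 32.6 in WT (10AF, 11AF and 12AF) and 409600, 316200 and 463300 in KO. H2-Eb1 and H2-Aa did not separate at 10 weeks (log2 0.57 and 0.06), nor did Defb50 (−0.37), while Prdm16 (2.88), Hif3a (1.15) and Bcl2 (0.82) were higher in all 3. The ER list lay the other way, with 14 of 35 genes higher in all 3 KO libraries, 0 lower and a median of 0.29, and whether the ages differ was not tested.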

How the data were processed

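RNA of prostate lobes was sequenced and processed by the authors with FastQC, Trim Galore 0.4.1, cutadapt 1.18, STAR 2.7.3a against a GRCm38 genome with nuclear copies of mitochondrial DNA masked, and Salmon with a stranded library setting. The authors deposited a signal per gene and library: gene counts divided by 1 DESeq2 (1.26) size factor per library, in a separate table for each line and age. Columns carry no genotype or replicate number, and 1AF to 3AF were taken as WT because they recur in the table of the other mutant line. 0 columns of sample values were left out. At least 99.99% of the values were whole multiples of 1 read (tolerance 0.1 read), which gave the reads back for edgeR 4.0.16 and DESeq2 1.42.0.

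The main test was limma 3.58.1 (lmFit, eBayes with a mean trend, R 4.3.3) on log2(normalised count + 1), with a mean count of at least 10 and Benjamini-Hochberg adjustment at 0.05. Log2 differences are on that scale and understate the change of low genes. An exact permutation test of 3 against 3 libraries cannot go below 0.1. The limma script was tested on simulated data. Tables were made with Python 3.11.15, numpy 2.4.6, pandas 2.3.3 and scipy 1.17.1, and figures with matplotlib 3.10.9. Of the 55469 gene IDs, 54450 matched the annotation exactly and 55107 without the version.

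The members, lists and tests were chosen with earlier results of these data known. The seminal vesicle list was trimmed after its values were seen. Named genes are Elac2, Tst, Gldc, Bcl2, Trp63 and Hif3a from the study's text. At a mean of at least 50 they also include the 10 highest and 10 lowest by the gap between the groups, the 10 farthest absent in 5AF (at most 5 of the seminal vesicle list) and the 5 farthest in 5AF alone. From each list, the member with the highest count and up to 3 with the smallest p were added. Chosen after their values were seen were Adipoq, C1qa, C1qb, C1qc, Calr, Cidea, Ciita, Ctss, Eif2ak3, Elf5, Elovl6, Ern1, Fads2, Fgfr2, H2-Ab1, H2-DMa, H2-Q7, Hsp90b1, Hspa5, Hyou1, Ifi27, Isg20, Kit, Met, Pdia3, Pfkfb3, Pnpla2, Ptgs2, Stat2, Tap1, Tgm4, Ucp1 and Xbp1. Alternatives were another pseudocount, count minimum, scaling or tool, a seminal vesicle score as covariate, other class limits, and each library left out. Some genes are not reported here.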

Additional observations from a re-analysis of the deposited data

Results flagged for a closer look

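Several results had every KO library on one side of WT at 30 weeks and on the other side at 10 weeks. Of the 1139 genes higher in all 3 KO libraries at 30 weeks, 108 were lower in all 3 at 10 weeks (9.48%, beside 13.4% of all genes). Of the 1201 lower genes, 92 were higher in all 3 (7.66%, beside 11.9%). The difference between the ages was not tested, the 2 tables were normalised apart, and the mice differ. The list of ER chaperones had a median log2 difference of −0.34 at 30 weeks and 0.29 at 10 weeks. Of its members, Hsp90b1 had −0.41 and 0.98, Hspa5 −0.31 and 0.51, and Hyou1 −0.42 and 0.51. Calr had −0.36 and 0.33, Pdia3 −0.35 and 0.49, Sdf2l1 −0.56 and 0.44, and Derl3 −0.58 and 0.61. mt-Nd3, a mitochondrial mRNA for a complex I subunit, lay the other way round, with 0.59 at 30 weeks and −1.25 at 10 weeks, as did Ndufb4, a nuclear-encoded subunit of the same complex, with 0.60 and −0.93. At 10 weeks 62 of 75 nuclear-encoded OXPHOS subunits and 32 of 33 skeletal muscle genes lay below WT in all 3 KO libraries, beside 14.3% of all genes, and the part of muscle in these values was not tested.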

How the results depend on the processing

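With limma, 0 genes passed under every other pseudocount, count minimum, scaling and covariate tried, and 285 did with DESeq2. Leaving out 1 library gave 0 to 936 genes, with 936 without 5AF, 2 without 1AF and 0 without any other. At an unadjusted p under 0.05 there were 987 genes at a minimum mean count of 100, 956 with the seminal vesicle score as a covariate, 297 with 1AF and 2AF against 4AF and 5AF, and 762 (without 6AF) to 3476 (without 5AF) with 1 library left out, among them 890 without 3AF and 927 without 4AF. Genes above WT in all KO libraries numbered 535 at a minimum of 100, 1772 scaled to the total without seminal vesicle genes, 2073 with the 4 libraries, and 1539 to 3167 with 1 library left out, among them 1976 without 1AF, 1831 without 2AF and 3167 without 5AF. Those below WT numbered 644, 2189 and 1603 to 3189 for the last 3 of these settings, among them 2186 without 1AF, 1982 without 2AF and 3189 without 5AF. Fewer libraries make it easier to lie beyond all others. Higher genes absent in 5AF numbered 595 and 110 at minimum mean counts of 1 and 100, 767 and 154 at distances of 0.5 and 2 log2 units, and 232 with 5AF inside the WT range itself. Lower ones numbered 57 and 4, 304 and 3, and 7 for the same settings, 8 with a pseudocount of 8 and 67 after quantile normalisation. The cause was not tested.

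Of 102 named genes 91 kept their sign under all settings. Elac2 ran from −0.58 (without 5AF) to −0.27 (without 4AF) with 1 library left out, and was at −0.15 with the seminal vesicle score as a covariate. With the seminal vesicle score as a covariate Angpt2 was at 0.10, Kit −0.65, Fgfr2 −0.27, B2m −0.47, Ern1 −0.49, Eif2ak3 0.070, Svs5 −0.078 and H2-DMa 0.51. Scaled to the total without seminal vesicle genes, H2-DMa was at 0.0037, with edgeR at 0.038 and with DESeq2 at 0.035. With the 4 libraries H2-DMa was at 0.041 and Ern1 −0.022. With 1 library left out Tgm4 ran from −4.26 to 2.24, Tcaf3 from −6.31 to 1.03, H2-DMa from −0.39 to 0.21, Ern1 from −0.045 to 0.60 and Xbp1 from −0.00016 to 0.15. Of 626 list medians 567 moved by less than the spread between KO libraries. No paired analysis was possible because the deposited columns carry no replicate numbers.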
